A study of Mus musculus with 10 samples.

Results

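Expression of 32 genes of the oligodendrocyte lineage and of myelin was compared between the hippocampus of Dp5/Dp1 mice, a mouse model of Down syndrome, and that of their control littermates. The genes were chosen by name for their known place in the lineage, with earlier results of these data known. They were split by stage into 4 lineage transcription factors, 3 precursor genes, 5 genes of differentiating cells and 20 genes of mature, myelinating cells. All 32 were measured, each by 1 probe set, among the 19938 genes of the array with a single symbol. The Dp5/Dp1 group (5 male mice, 16 weeks of age) carried both segmental duplications of mouse chromosome 16, Dp5Yah from Cyyr1 to Clic6 and Dp1Rhr from Cbr1 to Fam3b, on opposite homologues, so that genes inside either interval were present in 3 copies. The control group (5 male littermates of the same age) carried neither duplication. Both groups were on the C57BL/6N background per the labels (the study's methods name another C57BL/6 substrain), RNA was taken from the whole hippocampus of both sides, and each mouse gave 1 array. The design text states that these controls came from a breeding shared with the single Dp5Yah and Dp1Rhr lines, which were not analysed here. Of the 32 genes, Olig1 and Olig2 lie inside the Dp5Yah interval, and the other 30 lie outside both intervals.

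Oligodendrocytes are the glial cells that wrap axons of the central nervous system in myelin. They arise from proliferating precursors that carry the receptor PDGFRA and the proteoglycan CSPG4, pass through a short premyelinating stage marked by genes such as Gpr17 and Enpp6, and then switch on the genes for myelin proteins and myelin lipids. The transcription factors OLIG2 and SOX10 act from the earliest stages of the lineage onwards, and MYRF starts the myelin programme as cells leave the cell cycle. In the adult hippocampus, precursors are spread through all layers, and myelinating cells are densest in the white matter tracts.

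No gene of the lineage passed the test between Dp5/Dp1 and control hippocampi. The values are log2 expression levels from Affymetrix arrays normalized by the robust multi-array average (RMA), in which a difference of 1 is a doubling, and each difference is given as Dp5/Dp1 minus control with its standard error from limma. Limma called 0 of the 32 members at a Benjamini-Hochberg adjusted p under 0.05, against 41 of all 19938 genes (0.206%). Of the members, 18 had the higher mean in Dp5/Dp1 hippocampi and 14 the lower mean, with a median difference of 0.013 over the members and 0.002 over all genes. At an unadjusted p under 0.05, 3 members were higher (Olig1, Pllp and Ppp1r14a, 9.38% of the 32) where 3.39% of all genes were, and 2 were lower (Enpp6 and Bmp4, 6.25%) where 2.67% of all genes were. FCROS, the rank method of the study, places a gene by the ranks of its fold change over all pairs of a Dp5/Dp1 and a control array. It put 4 members in its upper tail (Olig1, Pllp, Opalin and Ppp1r14a; 12.5% of the 32, against 2.84% of all genes). Another 4 lay in its lower tail (Gpr17, Enpp6, Bmp4 and Ermn; 12.5%, against 2.21% of all genes). As rewritten here, the tails are cut on a normal curve fitted to the mean ranks of all genes. They hold some genes whatever the differences, and a place in them is not an adjusted call. In no member did the 5 Dp5/Dp1 arrays lie wholly apart from the 5 control arrays, which 0.762% of all genes did with Dp5/Dp1 higher and 0.321% with Dp5/Dp1 lower. The intervals limit the size of any difference: the 95% confidence interval lay within a 1.5-fold difference either way in 31 of 32 members, the exception being Opalin, and within a 1.2-fold difference in 21. Of all 19938 genes, 19797 had an interval within a 1.5-fold and 18392 within a 1.2-fold difference, so the members were not bounded more tightly than other genes. In bulk RNA, fewer cells of a type and less RNA per cell cannot be told apart.

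**Figure D1:**
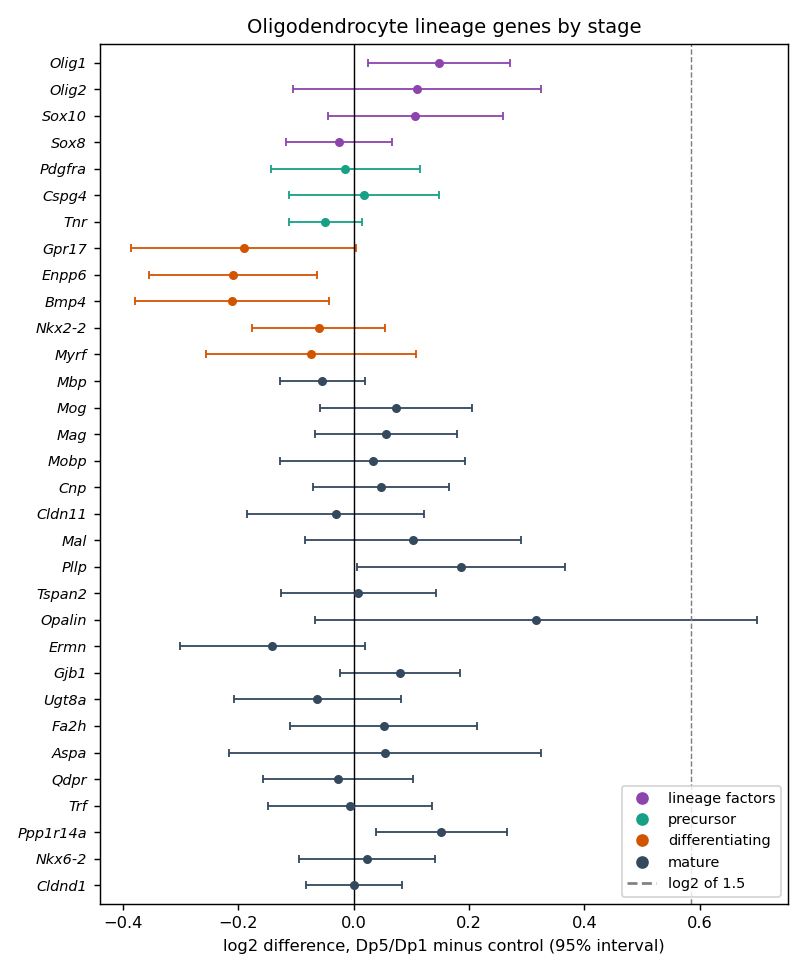
Log2 difference of each of the 32 lineage genes (horizontal axis, Dp5/Dp1 minus control, points) with its 95% confidence interval from limma (bars), grouped by stage from top to bottom; the dashed line marks the log2 of 1.5, the ratio of 3 copies to 2. Most intervals include 0, all 5 genes of differentiating cells lie left of 0, and the intervals of Olig1 and Olig2 end left of the dashed line.

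The arrays carried the genotype of the condition label, which names both duplications. The titles of the Dp5/Dp1 arrays name Dp5Yah mice, with the Dp5/Dp1 model in brackets. All 5 control titles end with the word reanalysis in brackets, which no Dp5/Dp1 title carries. The mean of 31 genes of the Dp1Rhr interval separated all 5 Dp5/Dp1 arrays (8.21 to 8.26) from all 5 control arrays (8.03 to 8.05). The 10 neuronal genes listed as a check of the tissue averaged 11.97 to 12.03 on the Dp5/Dp1 arrays and 11.98 to 12.06 on the control arrays. With no other tissue to compare, these averages cannot tell hippocampus from other neuronal tissue. Markers of tissue next to the hippocampus differed between arrays and in their group means. All 11 measured choroid plexus markers had the lower mean in Dp5/Dp1 hippocampi, with a median difference of -0.396. All 7 medial habenula markers had the higher mean, with a median difference of 0.391. The mean of 11 measured choroid plexus markers ranged from 7.00 to 8.63 on the Dp5/Dp1 arrays and from 6.89 to 9.05 on the control arrays (highest in control replicates 1 and 4), and that of 7 medial habenula markers from 7.12 to 8.68 (highest in Dp5/Dp1 replicates 2 and 5) and from 7.02 to 7.61. Limma called none of these markers between the groups. FCROS put 4 of the 7 habenula markers in its upper tail (2.84% of all genes). It put 1 of the 11 choroid plexus markers in its lower tail (2.21% of all genes).

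Promoter sequences are shown for 5 members on which the results below turn: Olig2, a triplicated factor whose interval includes 0; Enpp6 and Bmp4, the 2 genes of differentiating cells with the lowest p; Opalin, the member with the largest difference; and Ppp1r14a, the mature gene with the lowest p. Each runs from 250 bases before to 50 bases after an annotated transcript start on its own strand, in the RefSeq annotation of build GRCm38.p6, which held such windows for 25 of the 32 members. Capitals mark matches to CANNTG, the E-box hexamer recognised by basic helix-loop-helix proteins such as OLIG1 and OLIG2, and to ACAAAG, a core recognised by SOX proteins such as SOX10, both searched on both strands, with no letter shared between the 2 motifs in these windows. The windows lie at chr16:91225300-91225599 (plus strand, Olig2), chr8:46986637-46986936 (plus strand, Enpp6), chr14:46390620-46390919 (minus strand, Bmp4), chr19:41077064-41077363 (minus strand, Opalin) and chr7:29289070-29289369 (plus strand, Ppp1r14a).
Olig2: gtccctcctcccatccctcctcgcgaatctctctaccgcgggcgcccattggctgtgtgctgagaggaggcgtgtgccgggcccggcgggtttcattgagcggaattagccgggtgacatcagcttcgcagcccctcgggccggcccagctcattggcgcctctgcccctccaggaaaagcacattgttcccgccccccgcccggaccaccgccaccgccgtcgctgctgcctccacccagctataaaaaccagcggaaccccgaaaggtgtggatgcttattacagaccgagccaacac
Enpp6: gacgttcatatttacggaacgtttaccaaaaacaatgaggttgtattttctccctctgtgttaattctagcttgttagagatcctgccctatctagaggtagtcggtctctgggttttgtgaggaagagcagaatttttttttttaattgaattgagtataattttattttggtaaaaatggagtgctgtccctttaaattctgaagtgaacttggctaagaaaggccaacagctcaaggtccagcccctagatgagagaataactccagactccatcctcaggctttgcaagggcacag
Bmp4: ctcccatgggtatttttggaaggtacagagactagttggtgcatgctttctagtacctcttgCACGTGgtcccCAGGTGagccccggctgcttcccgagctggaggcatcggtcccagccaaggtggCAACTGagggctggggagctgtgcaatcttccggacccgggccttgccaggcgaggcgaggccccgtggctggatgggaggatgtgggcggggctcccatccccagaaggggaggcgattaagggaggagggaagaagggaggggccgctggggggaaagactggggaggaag
Opalin: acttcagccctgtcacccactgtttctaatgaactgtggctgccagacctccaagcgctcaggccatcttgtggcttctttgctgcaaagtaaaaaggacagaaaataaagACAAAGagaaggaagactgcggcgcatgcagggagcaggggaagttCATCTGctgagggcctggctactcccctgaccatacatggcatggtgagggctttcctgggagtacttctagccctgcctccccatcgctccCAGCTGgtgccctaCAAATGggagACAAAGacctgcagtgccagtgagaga
Ppp1r14a: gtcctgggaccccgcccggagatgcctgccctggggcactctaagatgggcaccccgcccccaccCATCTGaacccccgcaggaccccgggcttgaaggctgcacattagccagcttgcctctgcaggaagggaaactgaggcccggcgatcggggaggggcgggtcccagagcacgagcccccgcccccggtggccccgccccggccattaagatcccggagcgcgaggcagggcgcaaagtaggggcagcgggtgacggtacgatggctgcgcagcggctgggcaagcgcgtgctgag
The 5 windows differ in composition. Those of Olig2 and Ppp1r14a are rich in G and C (65.0% and 71.3%, with 25 CG dinucleotides each), whereas that of Enpp6 holds 40.3% G and C and 4 CG dinucleotides, beside a median of 52.7% and 7 over all promoters. Bmp4 and Opalin each hold 3 E-box matches and Ppp1r14a holds 1, whereas Olig2 and Enpp6 hold none. Opalin is the only one of the 5 with matches to the SOX core, which number 2. Over the 25 members with a window, 15 held an E-box match and 7 a SOX core match, where 72.3% and 18.7% of all 32851 promoters did. A member counted if any of its windows held a match, whereas all promoters were counted window by window. The 2 counts are thus not in the same unit. A match is a description of the letters and not a site.

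Among the lineage transcription factors, Olig1, Olig2 and Sox10 had higher means in Dp5/Dp1 hippocampi by about 0.1 log2, and none was called. Olig1 (chr16:91269769-91271939) encodes a basic helix-loop-helix factor that supports oligodendrocyte maturation. Olig1 measured 10.13, 10.04, 9.99, 9.84 and 9.98 on Dp5/Dp1 arrays 1 to 5 and 9.90, 9.92, 9.73, 9.90 and 9.79 on control arrays 1 to 5. Of the 5 Dp5/Dp1 arrays, 4 lay above every control array, and replicate 4 lay among the controls. The difference was 0.148 ± 0.056, with an interval from 0.026 to 0.270, an unadjusted p of 0.0218 and an adjusted p of 0.806. That corresponds to a 1.11-fold level (interval 1.02 to 1.21).

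Olig2 (chr16:91225550-91228677) encodes the related factor that specifies the lineage. Olig2 measured 9.34, 9.27, 9.12, 8.84 and 9.28 on the Dp5/Dp1 arrays and 9.07, 9.01, 8.82, 9.25 and 9.15 on the control arrays. Dp5/Dp1 replicates 1, 2 and 5 lay above every control array, and Dp5/Dp1 replicate 4 lay beside the lowest control, replicate 3. The difference was 0.110 ± 0.098 (interval -0.105 to 0.324, adjusted p 0.888), and single arrays moved it widely, from 0.050 without control replicate 3 to 0.192 without Dp5/Dp1 replicate 4.

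Sox10 and Sox8 encode related factors of the SOX family, of which SOX10 activates myelin genes directly. Both genes lie outside the triplicated intervals. Sox10 measured 9.19, 9.08, 8.92, 8.89 and 8.94 on the Dp5/Dp1 arrays and 8.68, 9.01, 8.91, 8.92 and 8.96 on the control arrays. The highest values belonged to Dp5/Dp1 replicates 1 and 2 and the lowest to control replicate 1, while the other 7 arrays lay together, and the difference was 0.107 ± 0.070 (adjusted p 0.850). Sox8 differed by -0.025 ± 0.042, with 9.64 to 9.86 on the Dp5/Dp1 arrays and 9.76 to 9.85 on the control arrays. Dp5/Dp1 replicate 1 gave the highest value of all 10 arrays in each of the 4 factors, and without it the median difference of the 4 went to 0.064, against 0.108 with all arrays.

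**Figure D2:**
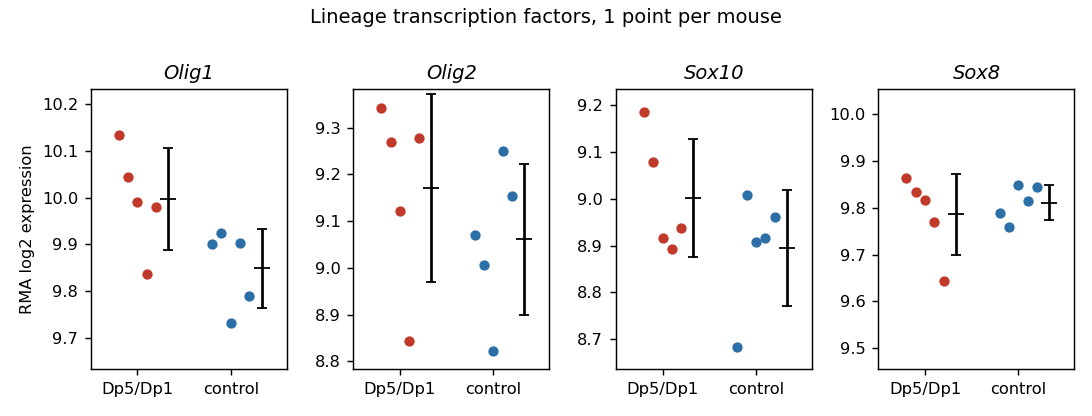
RMA log2 expression (vertical axes, all of the same span) of Olig1, Olig2, Sox10 and Sox8 in the Dp5/Dp1 mice (left) and the control mice (right); points are single mice in replicate order and the bars beside them show mean ± SD (n = 5 each). For Olig1, 4 Dp5/Dp1 arrays lie above all controls, and the groups overlap in every panel.

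Because Olig1 and Olig2 are present in 3 copies and Sox10 in 2, each was set against Sox10 on the same array. Sox8, also in 2 copies, differed by -0.025 ± 0.042, where Sox10 differed by 0.107 ± 0.070. A contrast with Sox8 was not tested, so the results hold for Sox10 as the reference only. Olig1 minus Sox10 averaged 0.995 ± 0.059 in Dp5/Dp1 and 0.954 ± 0.161 in control hippocampi (SD, n = 5 each), a difference of 0.041 ± 0.077. Olig2 minus Sox10 averaged 0.168 ± 0.140 in Dp5/Dp1 and 0.165 ± 0.205 in control hippocampi, a difference of 0.003 ± 0.111. Neither passed the exact two-sided permutation test over all assignments of the 10 arrays to the groups (p = 0.667 for Olig1 and p = 0.968 for Olig2, both 0.968 adjusted over the 2 tests; the smallest p this design allows is 0.00794).

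The size of the differences of Olig1 and Olig2 was also low among the triplicated genes around them. Of 59 measured genes of the Dp5Yah interval outside a cluster of claudin and keratin-associated genes, 38 were not among the dimmest 40% of all genes. In these 38, the median difference was 0.404 and 25 were called, and Olig1 ranked 35th and Olig2 37th by difference. Only Clic6, a gene of the choroid plexus, ranked below Olig2, and Map3k7cl ranked between them. The intervals of Olig1 and Olig2 ended below 0.585, the log2 of the ratio of 3 copies to 2, which does not set them apart, since 28 of the 38 genes had an interval within a 1.5-fold difference.

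The next genes along the chromosome on the Olig1 side are receptor genes with far larger differences. Ifnar2, which encodes an interferon receptor subunit, averaged 10.05 ± 0.09 in Dp5/Dp1 and 9.39 ± 0.05 in control hippocampi (SD, n = 5 each) and rose by 0.662 ± 0.044 (adjusted p 4.83e-05). Il10rb, which encodes a subunit of the interleukin 10 receptor, rose by 0.502 ± 0.038 (adjusted p 0.000133). In both, every Dp5/Dp1 array lay above every control array. The 2 nearest measured genes on the Olig2 side, 4932438H23Rik and Gm9881, were dim, with differences of 0.042 ± 0.052 and -0.024 ± 0.032.

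Each triplicated factor was then set against the mean of the other 36 Dp5Yah genes that were not dim, a comparison chosen after their values were seen. The low ranks of Olig1 and Olig2 were known by then, and the adjustment over 2 tests does not cover that choice. Olig1 minus this mean measured 0.634, 0.557, 0.414, 0.318 and 0.399 on the Dp5/Dp1 arrays and 0.756, 0.854, 0.535, 0.667 and 0.635 on the control arrays. The Dp5/Dp1 values were the lower ones, with replicates 1 and 2 reaching into the control range. The difference was -0.225 ± 0.079 (exact permutation p = 0.0317, 0.0476 adjusted over 2 tests). Olig2 minus the same mean differed by -0.263 ± 0.117 (exact permutation p = 0.0476, 0.0476 adjusted), with all 5 Dp5/Dp1 arrays below 4 of the 5 control arrays. The adjusted exact p did not stay under 0.05 under renewed quantile normalization (0.0556 for both) or without Dp5/Dp1 replicates 2 and 5 (0.0893). Leaving out single arrays gave adjusted exact p from 0.0159 to 0.103 for Olig1 and from 0.0159 to 0.111 for Olig2.

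**Figure D3:**
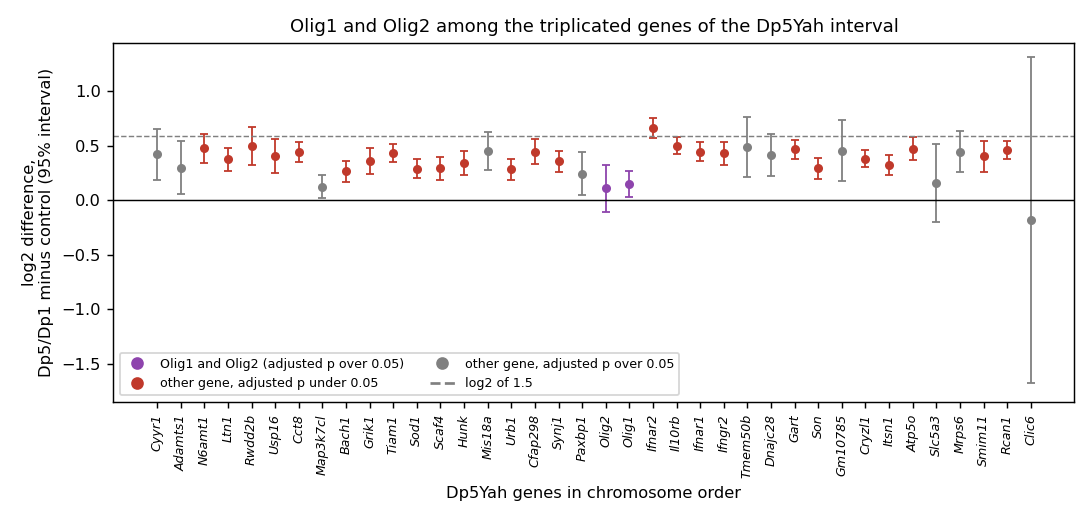
Log2 difference (vertical axis, Dp5/Dp1 minus control) with its 95% confidence interval for the 38 Dp5Yah genes that were not dim, outside the claudin and keratin-associated cluster, in chromosome order; Olig1 and Olig2, neither of them called, are purple, the called genes are red and the remaining genes grey, and the dashed line marks the log2 of 1.5. Olig2 and Olig1 sit at 0.110 and 0.148 beside Ifnar2 at 0.662 and Il10rb at 0.502.

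The 3 precursor genes had nearly the same level in both groups, with a median difference of -0.014 and every 95% interval inside a 1.2-fold difference. Pdgfra, the receptor for the growth factor that keeps precursors dividing, measured 9.18, 9.17, 9.37, 9.21 and 9.22 on the Dp5/Dp1 arrays and 9.35, 9.11, 9.26, 9.38 and 9.13 on the control arrays. Its groups overlapped along the whole range, and the difference was -0.014 ± 0.059 (adjusted p 0.978). Cspg4, which encodes the surface proteoglycan NG2 and is also made by pericytes, differed by 0.019 ± 0.060 (8.16 to 8.26 on the Dp5/Dp1 arrays and 8.03 to 8.37 on the control arrays). Tnr, the gene of the matrix protein tenascin R, which neurons make too, differed by -0.049 ± 0.029, and all 5 Dp5/Dp1 arrays (10.86 to 10.94) lay below the control mean (control arrays 10.91 to 10.99). Control replicate 4 gave the highest of the 10 values in each of the 3 genes.

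All 5 genes of differentiating cells had the lower mean in Dp5/Dp1 hippocampi, with a median difference of -0.191, and none was called. Gpr17, Enpp6 and Bmp4 differed most, each by about 0.2 log2, and Nkx2-2 and Myrf by less than 0.1. Gpr17 encodes a receptor that appears as precursors commit to differentiation and is lost before myelination. Gpr17 measured 8.61, 8.47, 8.66, 8.54 and 8.78 on the Dp5/Dp1 arrays and 8.47, 8.80, 8.96, 8.97 and 8.81 on the control arrays. All control arrays but replicate 1 lay above all Dp5/Dp1 arrays. Its difference was -0.191 ± 0.089 (interval -0.386 to 0.005, unadjusted p 0.0548, adjusted p 0.824), and it went to -0.273 without control replicate 1 (adjusted p 0.396).

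Enpp6 encodes a choline phosphodiesterase that marks newly formed oligodendrocytes. Enpp6 measured 7.34, 7.48, 7.31, 7.19 and 7.34 on the Dp5/Dp1 arrays and 7.67, 7.60, 7.34, 7.48 and 7.62 on the control arrays. Controls 1, 2 and 5 lay above every Dp5/Dp1 array, while controls 3 and 4 lay within the Dp5/Dp1 range. The difference was -0.209 ± 0.067 (interval -0.355 to -0.063), with the lowest unadjusted p of the 32 members, 0.00911, and an adjusted p of 0.714.

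Bmp4 encodes a secreted ligand of the bone morphogenetic protein family, which holds back oligodendrocyte differentiation and is made by newly committed cells of the lineage. Bmp4 measured 7.66, 7.64, 7.55, 7.58 and 7.70 on the Dp5/Dp1 arrays and 8.06, 7.82, 7.60, 7.99 and 7.72 on the control arrays. The Dp5/Dp1 values lay close together (SD 0.063), the control values were spread more widely (SD 0.187), and 4 of 5 controls lay above all Dp5/Dp1 arrays. The difference was -0.211 ± 0.077 (interval -0.379 to -0.042, adjusted p 0.806). The 2 highest controls, replicates 1 and 4, were also those with the highest choroid plexus markers, and with the mean of those markers as a covariate the difference was -0.177 (unadjusted p 0.0236, adjusted p 0.705).

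Nkx2-2 and Myrf encode transcription factors of this stage, a homeodomain protein that promotes differentiation and the regulator that starts myelin gene expression. Nkx2-2 differed by -0.061 ± 0.053 (6.82 to 7.04 on the Dp5/Dp1 arrays and 6.84 to 7.08 on the control arrays). Myrf differed by -0.074 ± 0.083 (9.46 to 9.73 and 9.45 to 9.92), and without control replicate 4, its highest array, by -0.009. With choroid plexus and medial habenula markers as covariates, the median difference of the 5 genes was -0.169. Markers of the thalamus and of astrocytes were also lower on average in Dp5/Dp1 hippocampi, with none called. Of 6 thalamus markers, 4 had the lower mean (median -0.197, 1 at an unadjusted p under 0.05), and their mean was 7.73 to 8.17 on the Dp5/Dp1 arrays and 8.08 to 8.56 on the control arrays, highest in control replicate 1, which was also the highest array for Enpp6 and Bmp4. Of 10 astrocyte markers, 7 had the lower mean (median -0.072, 2 at an unadjusted p under 0.05, of which Slc1a2 did not overlap between the groups), and their mean was 10.67 to 10.78 on the Dp5/Dp1 arrays and 10.72 to 10.88 on the control arrays, highest in control replicate 4. Of all genes, 2.67% were lower at an unadjusted p under 0.05 and 0.321% were lower without overlap of the groups. The part of these 2 marker lists in the values of the differentiating genes was not tested.

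**Figure D4:**
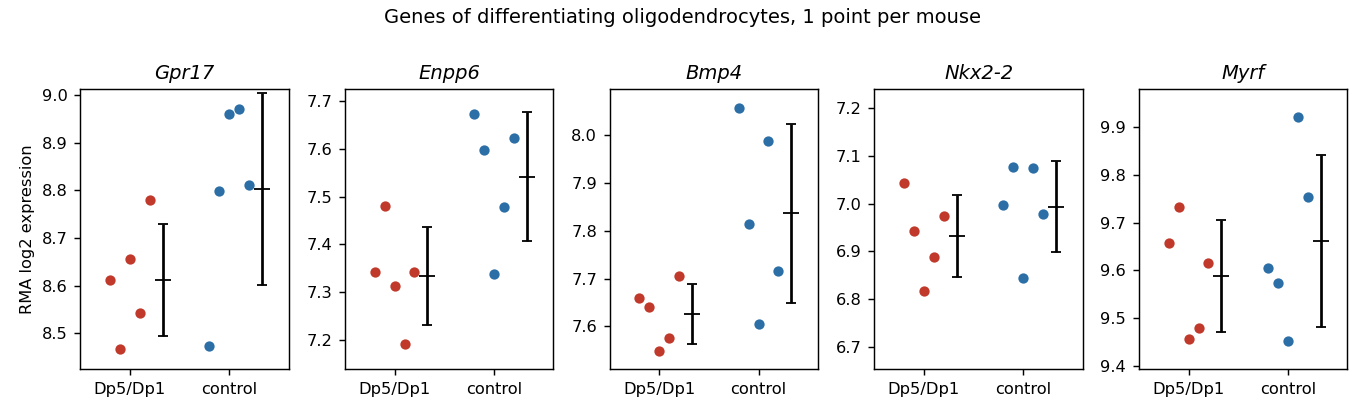
RMA log2 expression (vertical axes, all of the same span) of the 5 genes of differentiating oligodendrocytes in the Dp5/Dp1 mice (left) and the control mice (right); points are single mice in replicate order and the bars beside them show mean ± SD (n = 5 each). The Dp5/Dp1 mean is the lower one in every panel, by 0.191 to 0.211 for Gpr17, Enpp6 and Bmp4, and the groups overlap in every panel.

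The genes of mature cells were spread around 0: 14 of the 20 had the higher mean in Dp5/Dp1 hippocampi and 6 the lower mean, with a median difference of 0.040 and none called. That median rested on 1 array, since without Dp5/Dp1 replicate 1 it was 0.0005. Replicate 1 gave the highest of the 10 values in 12 of the 20 genes, replicate 2 in 3, and no other array in more than 2.

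The 12 genes of the myelin membrane had a median difference of 0.051. Mbp, the gene of myelin basic protein, which compacts the membrane, measured 12.48, 12.46, 12.43, 12.44 and 12.50 on the Dp5/Dp1 arrays and 12.47, 12.51, 12.45, 12.60 and 12.54 on the control arrays. All 5 Dp5/Dp1 arrays lay below the control mean, within a narrow range, and the difference was -0.054 ± 0.034 (interval -0.127 to 0.019, adjusted p 0.845). Mobp, a further compact myelin protein gene, differed by 0.033 ± 0.074. Cnp, the gene of the phosphodiesterase that keeps cytoplasmic channels open in myelin, differed by 0.047 ± 0.054, with 11.97 to 12.26 on the Dp5/Dp1 arrays and 11.94 to 12.10 on the control arrays. Mog and Mag encode immunoglobulin-family proteins of the outermost and of the innermost myelin layer, and they differed by 0.074 ± 0.060 and 0.056 ± 0.056. Cldn11, the gene of the claudin that seals myelin layers, differed by -0.031 ± 0.070.

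Opalin, a transmembrane protein gene of the oligodendrocyte, had the largest difference and the widest spread of the 32. Opalin measured 10.20, 9.81, 9.51, 9.44 and 9.33 on the Dp5/Dp1 arrays and 9.50, 9.70, 9.26, 8.87 and 9.38 on the control arrays. Dp5/Dp1 replicates 1 and 2 lay above every control, control replicate 4 lay far below the rest, and the other 7 arrays were mixed. The difference was 0.316 ± 0.175 (interval -0.066 to 0.699, adjusted p 0.832), and 0.181 without Dp5/Dp1 replicate 1. Pllp, which encodes the membrane proteolipid plasmolipin, measured 9.87, 9.84, 9.62, 9.44 and 9.73 on the Dp5/Dp1 arrays and 9.62, 9.67, 9.45, 9.41 and 9.42 on the control arrays. Dp5/Dp1 replicates 1, 2 and 5 lay above all controls, and the difference was 0.186 ± 0.082 (unadjusted p 0.0443, adjusted p 0.818). Mal, which encodes a related proteolipid of membrane sorting, differed by 0.103 ± 0.086, and its 2 highest arrays were Dp5/Dp1 replicates 1 and 5 (11.53 and 11.52, against 11.35 in the highest control).

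Ermn, which encodes the actin-binding protein ermin of late stages, had the lowest difference of the mature genes. Ermn measured 10.24, 10.41, 10.28, 10.23 and 10.31 on the Dp5/Dp1 arrays and 10.45, 10.19, 10.34, 10.59 and 10.60 on the control arrays. All Dp5/Dp1 arrays lay below the control mean but inside the control range, and the difference was -0.141 ± 0.073 (adjusted p 0.832). Gjb1, the gene of connexin 32, which couples myelin layers, differed by 0.080 ± 0.048, and Tspan2, a tetraspanin gene, by 0.008 ± 0.061.

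The enzymes of myelin lipids and of oligodendrocyte metabolism did not share a direction. Ugt8a, which makes galactosylceramide, differed by -0.063 ± 0.066, and Fa2h, which hydroxylates the fatty acids of myelin lipids, by 0.052 ± 0.074. Aspa, which frees acetate from N-acetylaspartate, differed by 0.054 ± 0.124 with a wide spread in both groups (8.55 to 9.17 on the Dp5/Dp1 arrays and 8.57 to 9.04 on the control arrays). Qdpr, which recycles tetrahydrobiopterin, differed by -0.028 ± 0.059.

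Of the 4 remaining mature genes, Ppp1r14a stood at the upper end. It encodes an inhibitor of myosin phosphatase that is abundant in mature oligodendrocytes. Ppp1r14a measured 9.45, 9.28, 9.20, 9.14 and 9.20 on the Dp5/Dp1 arrays and 9.04, 9.15, 9.10, 9.11 and 9.12 on the control arrays. All Dp5/Dp1 arrays but replicate 4 lay above every control, and replicate 4 lay just below the highest, and the difference was 0.152 ± 0.052 (interval 0.038 to 0.266, unadjusted p 0.0132, adjusted p 0.753). Trf (transferrin, an iron carrier) differed by -0.006 ± 0.065, Nkx6-2 (a homeodomain factor of myelinating cells) by 0.023 ± 0.054, and Cldnd1 (a claudin-like membrane protein) by 0.0002 ± 0.038.

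The stages were also compared within each array. The mean of the 20 mature genes minus that of the 5 differentiating genes was 2.52, 2.46, 2.43, 2.42 and 2.34 on the Dp5/Dp1 arrays and 2.25, 2.23, 2.30, 2.12 and 2.30 on the control arrays. The groups did not overlap in this contrast, which was formed with the values of both stages known and is given with no test. The differentiating mean alone was 7.94 to 8.08 on the Dp5/Dp1 arrays and 8.04 to 8.29 on the control arrays, with only control replicate 3 inside the Dp5/Dp1 range, and the mature mean was 10.35 to 10.58 and 10.34 to 10.47, so the contrast followed mostly the differentiating genes. The mature mean minus the lineage factor mean overlapped between groups (0.927 to 1.02 on the Dp5/Dp1 arrays and 0.934 to 1.05 on the control arrays). In the lists of further genes described below, both stages moved alike. The mean of the other mature genes differed by -0.033 and that of the other differentiating genes by -0.039, each with overlapping groups. The separation of the contrast thus holds for the chosen members only.

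**Figure D5:**
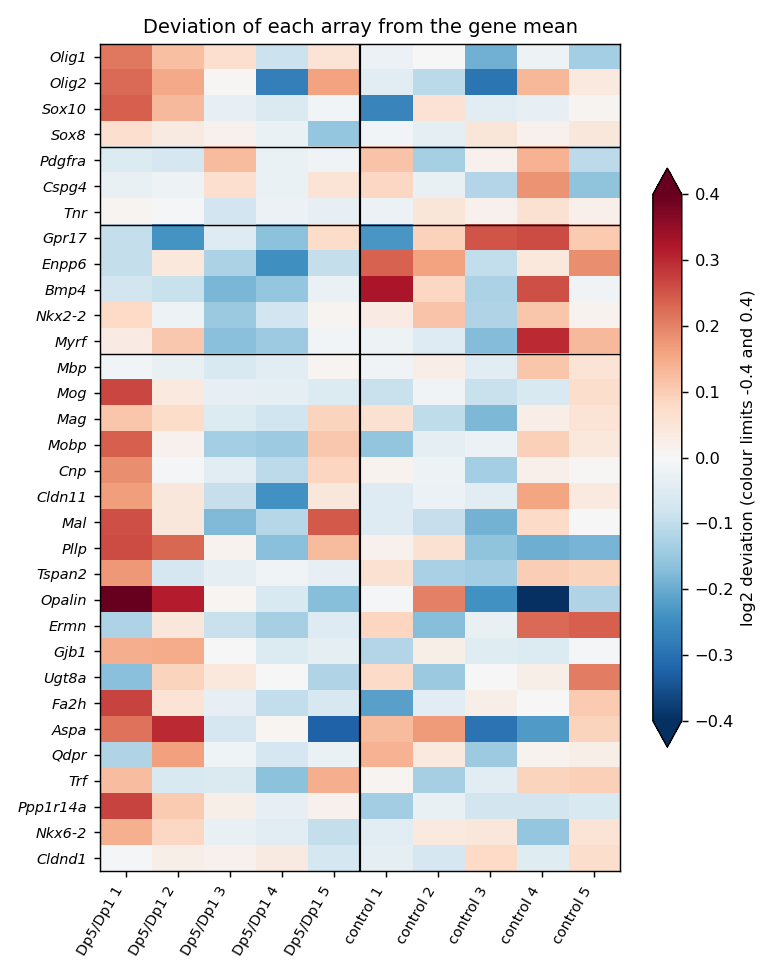
Deviation of each array from the gene's mean over all 10 arrays (colour, log2, limits at -0.4 and 0.4) for the 32 genes, with the 5 Dp5/Dp1 arrays left of the vertical line and the 5 control arrays right of it, and horizontal lines between stages. Dp5/Dp1 replicate 1 is high across lineage factors and most mature genes, and Gpr17, Enpp6 and Bmp4 are mostly low in the Dp5/Dp1 arrays.

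Further genes of the lineage, taken from lists that do not include the 32, gave no limma call either. FCROS put 2 of 7 other differentiating genes, 4 of 23 other mature genes and 3 of 27 regulators in its lower tail (2.21% of all genes). It put none of these in its upper tail (2.84% of all genes). No other precursor or Olig family and partner gene lay in either tail. Of 7 other genes of differentiating cells, 3 had the higher and 4 the lower mean, with a median difference of -0.016. Among them Sema4d, which encodes a semaphorin, measured 9.28, 9.36, 9.23, 9.36 and 9.27 on the Dp5/Dp1 arrays and 9.37, 9.46, 9.43, 9.46 and 9.43 on the control arrays. All Dp5/Dp1 values lay below all control values, as in 0.321% of all genes, and the difference was -0.128 ± 0.034 (adjusted p 0.499). Zfp488, which encodes a zinc finger partner of OLIG2, differed by -0.157 ± 0.046 (adjusted p 0.640).

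In 23 other mature myelin genes the median difference was -0.014, with 11 higher and 12 lower means. Anln (anillin, a septin scaffold) differed by -0.370 ± 0.107 (adjusted p 0.638; 9.04 to 9.35 on the Dp5/Dp1 arrays and 9.34 to 9.95 on the control arrays) and Klk6 (a secreted protease) by -0.163 ± 0.057. Of 7 other precursor genes, 2 had the higher and 5 the lower mean (median -0.027). Their lowest p were those of Vcan, the versican gene, at -0.108 ± 0.064 and Cacng4, an AMPA receptor auxiliary subunit gene, at 0.066 ± 0.044.

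Of 27 regulators of the lineage (signals, receptors, chromatin and transcription factors), 19 had the lower mean in Dp5/Dp1 hippocampi (median -0.029). Klf9, a thyroid hormone-responsive transcription factor that is expressed in neurons too, measured 10.88, 11.02, 11.05, 10.98 and 11.10 on the Dp5/Dp1 arrays and 11.21, 11.12, 11.17, 11.26 and 11.20 on the control arrays. The groups did not overlap, with Dp5/Dp1 lower as in 0.321% of all genes, and the difference was -0.188 ± 0.043 (unadjusted p 0.000906, adjusted p 0.274). Bmpr1a, a receptor for BMP4, differed by -0.111 ± 0.046 (adjusted p 0.806). In 5 measured genes of the Olig family and of the class A partners with which OLIG proteins pair, all intervals lay within a 1.2-fold difference, and the lowest p were those of Bhlhe23 (-0.041 ± 0.031) and Tcf12 (-0.035 ± 0.035).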

How the data were processed

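Total RNA of 10 hippocampi (5 Dp5/Dp1, 5 control) was hybridised to Affymetrix Mouse Gene 1.0 ST arrays. The authors normalized the arrays by RMA and deposited log2 expression values per probe set. Their notes name RMA, limma and mm10, and versions are not given in the sources used here. Of 35556 probe sets, 21789 had 1 gene symbol in the platform annotation, and the probe set with the highest mean stood for each of 19938 genes. RMA compresses differences of dim genes, and the number of arrays limits the precision. Dp5/Dp1 and control were compared in R 4.3.3 with limma 3.58.1 (lmFit, eBayes, two-sided), adjusted over all genes, after tests on simulated data. FCROS was rewritten from its description (tails of 0.025). Contrasts of Olig1 and Olig2 with other genes were tested by exact permutation. Named were all 32 members, the 2 nearest measured genes on each side of Olig1 and Olig2, and in each further list up to 4 called genes or else the 2 with the lowest p. Genes outside this rule (Clic6, Map3k7cl, Slc1a2) were named after their values were seen. Members and lists were chosen with earlier results of these data known. Some listed genes are not reported here. Alternatives changed the filter, normalization, centring, probe set rule, variance model, array weights, covariates, test and arrays.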

Additional observations from a re-analysis of the deposited data

Results flagged for a closer look

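Of 72 sets of 5 values (32 members and 4 stage means in both groups), 4 held an array whose distance to its nearest neighbour exceeded Dixon's 95% critical value as a share of the whole range, where chance gives about 1 in 20. Pdgfra was 9.37 in Dp5/Dp1 replicate 3, with the next array at 9.22. Mog was 11.04 in Dp5/Dp1 replicate 1, with the next at 10.81, and Tspan2 was 10.29 in the same replicate, with the next at 10.10. Cnp was 11.94 in control replicate 3, with the next at 12.06.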

How the results depend on the processing

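Limma called 0 of the 32 members under every alternative, those that left out single arrays included (0 to 0), and at an unadjusted p under 0.05 it gave 5. FCROS placed 8 members and 1008 of all genes in its tails, Olig1 among them (0.148). Of the 32 members, 20 kept the sign of their difference in all 21 settings and 12 did not, all of these with differences of at most 0.054 in size. The sign turned for Cldnd1 with centring on genes outside the intervals (-0.0055), with choroid plexus markers as a covariate (-0.0079), with habenula markers added (-0.011) and with meningeal fibroblast markers, a covariate chosen after seeing the data (-0.0018). It turned for Pdgfra (0.014 and 0.028), Trf (0.020 and 0.018) and Nkx6-2 (-0.0030 and -0.012) with choroid plexus markers and with both marker lists, and for Tspan2 with array weights (-0.015). Without Dp5/Dp1 replicates 2 and 5, it turned for Sox8 (0.0060), Pdgfra (0.0084) and Olig2 minus Sox10 (-0.062). Over all genes, 25 were called with both marker lists as covariates and 21 without Dp5/Dp1 replicates 2 and 5, against 41. The cause was not tested in any of these.

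Leaving out single arrays gave 29 to 39 called genes, 0.114 to 0.188 for Olig1, 0.050 to 0.192 for Olig2, 0.008 to 0.106 for Olig1 minus Sox10 and -0.060 to 0.058 for Olig2 minus Sox10. Signs turned in the ranges of Aspa (-0.014 to 0.142), Cldn11 (-0.076 to 0.026), Cldnd1 (-0.016 to 0.020), Cspg4 (-0.019 to 0.066), Fa2h (-0.0090 to 0.085), Mobp (-0.022 to 0.073), Nkx6-2 (-0.012 to 0.051), Pdgfra (-0.049 to 0.019), Qdpr (-0.072 to 0.0035), Sox8 (-0.045 to 0.010), Trf (-0.043 to 0.034) and Tspan2 (-0.034 to 0.034). The medians by stage were 0.064 to 0.161 (lineage factors), -0.043 to 0.019 (precursor), -0.211 to -0.149 (differentiating) and 0.0005 to 0.066 (mature).

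With the replicate number as a block (replicate block), 26 genes and 0 members were called. Same-numbered arrays did not deviate together (correlations from -0.353 to 0.292, with 1 of 5 matching its own number best). These correlations cannot show whether same-numbered arrays share a litter or a processing day. Another scaling moved the median difference of all genes from 0.002 to at most 0.005. The labels do not tie arrays to litters, and the p-values measure the spread between these mice only.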
